A study of Drosophila melanogaster with 3 samples.

Results

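Clustered salr-GFP peaks are the binding sites that lie close together on the chromosome, in domains of dense binding. They were chosen by position alone from the peaks that passed the authors' irreproducible discovery rate (IDR) threshold, a filter that keeps peaks ranked alike across replicates. A peak was kept where 3 or more other IDR summits lay within 10000 bp on the same chromosome, and kept neighbours less than 10000 bp apart were joined into a domain. The rule kept 926 peaks, 24.1% of the IDR list, and left 2913, which are called the other IDR peaks. The kept peaks form 217 domains that together covered 1856 kb, or 1.39% of the chromosome arms.

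The libraries came from Drosophila melanogaster prepupae aged 24 hours, whole organisms with males and females pooled, of the salr-GFP strain, a transgenic line with GFP at the C terminus of salr. The series holds 3 biological replicates of chromatin immunoprecipitation followed by sequencing (ChIP-seq), on chromatin sonicated to 200 to 800 bp, and they form a single group. The free-text description calls each library an input control, which contradicts the assay title and the antibody field (salr); the separate control library was not analysed here. Every tissue of the animal is mixed in each library, the whole group is a single transgenic strain, and no condition was compared.

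salr (spalt-related) encodes a zinc finger transcription factor of the Spalt family, which acts with its neighbouring paralog salm in wing patterning downstream of the Dpp signal and in neural and sensory development. Vertebrate members of the family bind A/T-rich DNA through a cluster of zinc fingers. In ChIP-seq of fly transcription factors, groups of nearby peaks are known at developmental genes with several enhancers and also at open regions recovered with many unrelated factors.

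The sequences under the strongest summits of 8 domains with 9 or more kept peaks are shown, since they are the DNA at the strongest binding in the domains with most peaks. There are 11 such domains, with ties at 9 peaks ordered by summed pooled signal, and those of shn (12 peaks), CHES-1-like and ptc (9 each) are not printed. The arm that holds shn and ptc was left out of the printed sequences, and CHES-1-like came after the 8 in order. Each reaches 50 bases to either side of the summit, on the plus strand of the RefSeq Release 6 (dm6) genome, and capitals mark runs of 8 or more A or T bases. The heca window is chr3R:30265606-30265706, that of lncRNA:CR43334 is chr3L:621542-621642 and that of tara is chr3R:16224451-16224551. The CG1677 window is chrX:7293705-7293805 and that near lncRNA:CR45737 is chr3L:3395022-3395122. The windows at Raf, bves and Mnt are chrX:2300644-2300744, chrX:21054278-21054378 and chrX:3682302-3682402.
heca: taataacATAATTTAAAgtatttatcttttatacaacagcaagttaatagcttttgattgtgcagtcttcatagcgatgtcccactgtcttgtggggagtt
lncRNA:CR43334: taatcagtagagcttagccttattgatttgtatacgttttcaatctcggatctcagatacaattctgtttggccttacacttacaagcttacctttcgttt
tara: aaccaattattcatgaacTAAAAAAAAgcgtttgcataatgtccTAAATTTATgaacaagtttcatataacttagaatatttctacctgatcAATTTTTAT
CG1677: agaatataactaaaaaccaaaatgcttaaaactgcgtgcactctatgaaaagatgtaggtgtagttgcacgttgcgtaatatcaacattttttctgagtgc
near lncRNA:CR45737: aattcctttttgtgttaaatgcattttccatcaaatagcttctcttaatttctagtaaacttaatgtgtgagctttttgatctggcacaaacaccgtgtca
Raf: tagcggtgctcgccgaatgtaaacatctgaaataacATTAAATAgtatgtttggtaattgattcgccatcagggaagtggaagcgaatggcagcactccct
bves: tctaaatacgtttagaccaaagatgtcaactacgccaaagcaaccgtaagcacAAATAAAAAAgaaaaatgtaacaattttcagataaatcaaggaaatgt
Mnt: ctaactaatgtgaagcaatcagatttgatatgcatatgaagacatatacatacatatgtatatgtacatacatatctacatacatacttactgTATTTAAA

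Of these 8 windows, 5 held a run of 8 or more A or T bases, those of heca, tara, Raf, bves and Mnt. Their GC content ran from 23.8% at tara to 43.6% at Raf. The summits of lncRNA:CR43334, tara, lncRNA:CR45737 and bves lay within 1000 bp of a transcription start site (TSS), which was that of lncRNA:CR43337 in the lncRNA:CR43334 domain and that of lncRNA:CR45643 in the tara domain. Those of CG1677, Raf and Mnt lay in introns, and that of heca was intergenic.

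Most domains were small. There were 34 domains with a single kept peak, whose neighbours did not themselves reach the count, 30 with 2 or 3 kept peaks and 153 with 4 or more. The median was 4 kept peaks and the largest held 16. The 183 domains with 2 or more kept peaks spanned a median of 8857 bp from the first to the last summit, with a range of 556 to 42452 bp. Neighbouring kept summits lay a median of 1860 bp apart, and 33 of 709 gaps (4.65%) were shorter than 500 bp, near the length of the sheared fragments. Just inside the threshold stood 414 peaks with exactly 3 other summits, with a median pooled signal of 188.2 and 43.7% at promoters. Just outside it stood 686 peaks with 2 other summits, with a median pooled signal of 182.9 and 46.8% at promoters.

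**Figure D1:**
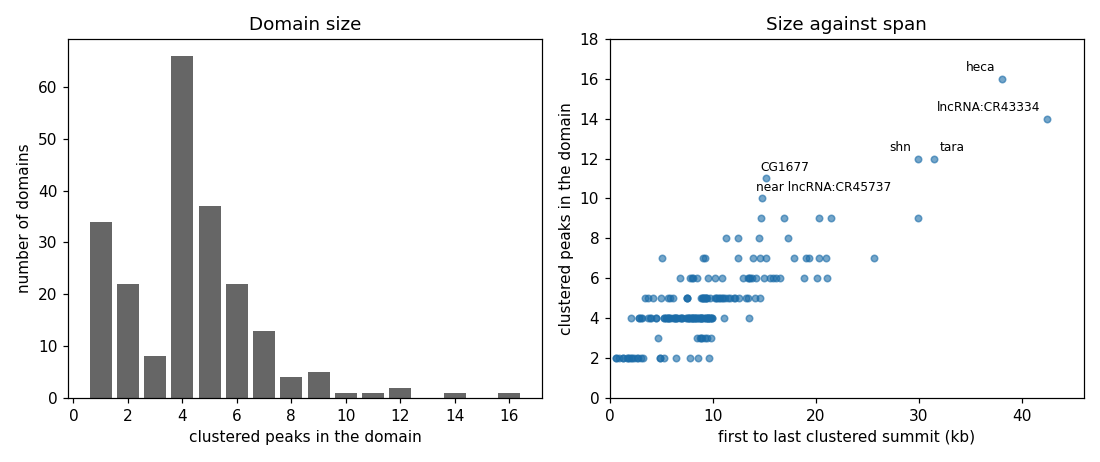
Size of the domains of clustered peaks. Left, bars give the number of domains (y axis) by their number of clustered peaks (x axis). Right, each point is a domain of 2 or more clustered peaks, with its span in kb on the x axis and its number of peaks on the y axis. The largest, at heca, held 16 peaks, and the longest, at lncRNA:CR43334, spanned 42452 bp.

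The domain with most peaks lay at heca (headcase), a gene needed by imaginal cells during metamorphosis. Its domain on 3R, from 30255528 to 30293796, held 16 kept peaks, or 0.418 per kb, and all 16 were matched in every library, where matched means a summit within 100 bp. Signal is given as relative signal, a peak's deposited signal over the median of all peaks listed for the same library. At the strongest peak, 30265488 to 30265766, the relative signal was 12.4 in library 1, 14.7 in library 2 and 15.6 in library 3. Only 1 of the 16 summits was at a promoter and 4 were intronic, while the other 11 were intergenic. The lowest relative signal of any peak in the domain was 1.90, 1.22 and 2.40 in libraries 1, 2 and 3.

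A domain of 14 peaks on 3L, from 611663 to 654458, was the longest. It spanned lncRNA:CR43334, the long RNA from which the growth-promoting microRNA bantam is made, and the TSS of mir-ban lay inside it; mir-ban was named after its position was seen. MED30 and Rev1 were among the 9 annotated genes starting inside it, apart from 2 entries without a symbol. At the strongest peak, 621474 to 621671, the relative signal was 8.13 in library 1, 9.33 in library 2 and 9.10 in library 3, so the libraries differed little there. At the Rev1 promoter the values were 8.65, 3.37 and 7.02, with library 2 the lowest. Of the 14 peaks, 13 were matched in all libraries.

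Taranis (tara), a transcriptional coregulator that interacts genetically with trithorax and Polycomb group genes, and schnurri (shn), the zinc finger cofactor of Dpp signalling, each had 12 kept peaks. The tara domain (3R, 16205411 to 16237068) held 6 promoter summits, most of them at long noncoding RNA genes. None lay within 1000 bp of a TSS of tara, whose body held 4 of the 12 summits. The strongest peak of the tara domain had relative signals of 11.6, 8.35 and 13.6 in libraries 1, 2 and 3. All 12 summits of the shn domain (2R, 11173464 to 11203609) fell in the shn gene body, 10 of them in introns. The strongest peak of shn reached 9.88, 8.0 and 9.60. The second peak of shn, 11203427 to 11203609, stood apart in library 2, with 15.1 against 5.96 and 6.04 in libraries 1 and 3. In both domains 9 of 12 peaks were matched in all 3 libraries.

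On the X, 11 peaks lay in a domain from 7291846 to 7307252, inside the overlapping bodies of CG1677 and lncRNA:CR44357 and with no TSS inside. Its last summit lay 760 bp from the TSS of brk (brinker), the repressor of Dpp target genes, and its first 720 bp from that of unc-119. The peak nearest brk, 7307002 to 7307252, had relative signals of 6.60, 2.06 and 11.7 in libraries 1, 2 and 3, so library 2 was lowest and library 3 highest. The strongest peak, 7293618 to 7293861, showed 8.02, 8.62 and 16.2, again highest in library 3. A domain of 10 peaks near lncRNA:CR45737 (3L, 3384484 to 3399580) had no summit in an intron, and its strongest peak gave 20.2, 15.8 and 20.5, with library 2 the lowest.

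**Figure D2:**
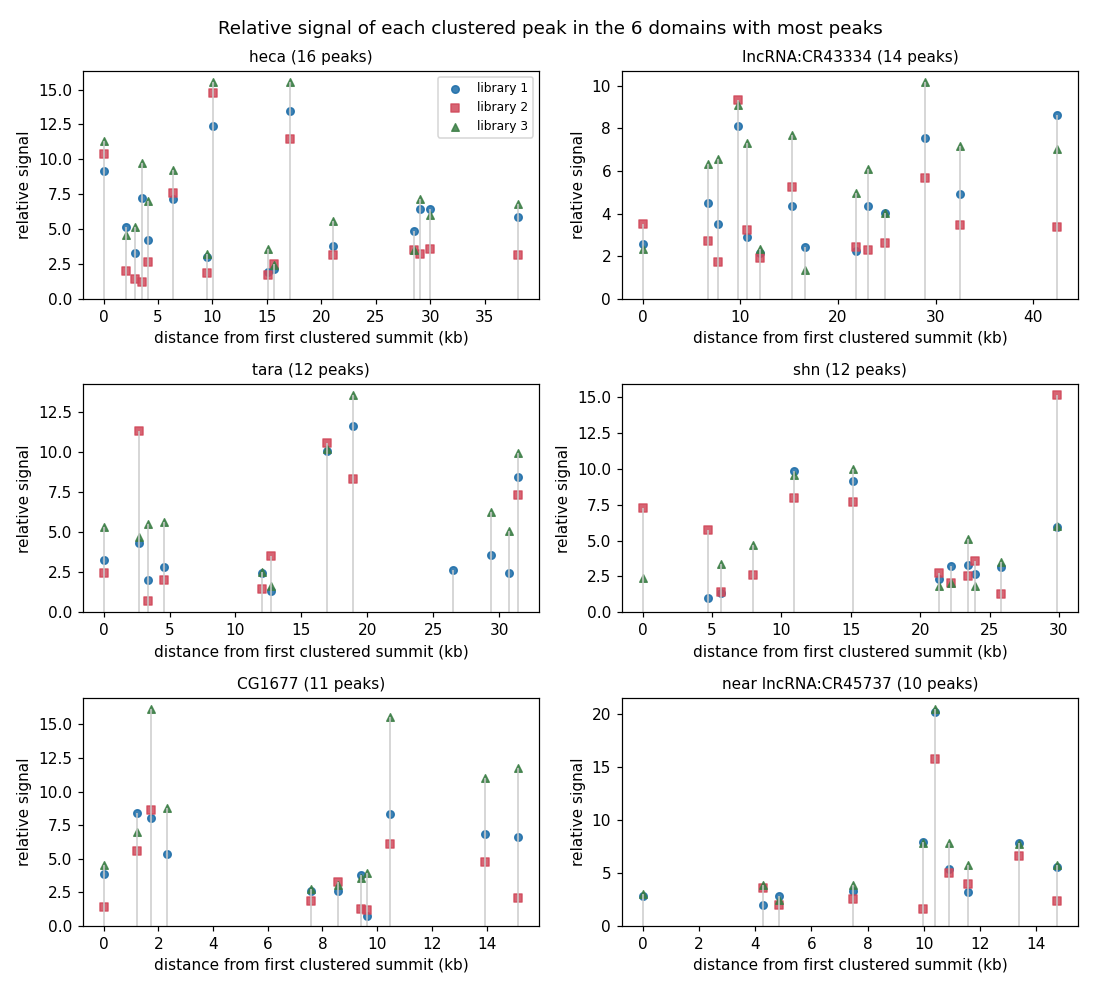
Relative signal of each clustered peak in the 6 domains with most peaks. The x axis is the distance from the domain's first clustered summit in kb, the y axis is relative signal, and the symbols are the 3 libraries; a missing symbol means that no summit of that library was matched. In heca the strongest peak reached 12.4, 14.7 and 15.6, and in shn a peak at the far end reached 15.1 in library 2 only.

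The remaining domains of the 12 named for their number of peaks lay at Raf, ptc, Mnt, CHES-1-like, bves and sbb. The last was 1 of 4 with 8 peaks and was taken for its summed pooled signal. Raf, the kinase that links Ras to the MAP kinase cascade, had a domain of 9 peaks (X, 2289303 to 2304218) with 7 summits in its body and all 9 matched in every library. Its strongest peak, in an intron, reached 20.8, 19.9 and 26.1 in libraries 1, 2 and 3. ptc (patched), the Hedgehog receptor, had 9 peaks (2R, 8639385 to 8659901), of which 5 were intergenic, and its strongest peak gave 8.62, 8.70 and 8.25. Mnt, a repressor of the Myc network, held all 9 peaks of its domain in its body, with 10.2, 6.29 and 9.23 at the strongest.

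CHES-1-like, a forkhead transcription factor gene, also held all 9 peaks of its domain in its body, and its strongest peak, nearest the TSS of lncRNA:CR43287, reached 10.7, 7.23 and 11.5. The 9 peaks of the bves domain were at promoters in 6 cases, and its strongest peak gave 13.8, 8.66 and 17.7. sbb (brakeless), which encodes a transcriptional corepressor, had 8 peaks, all intronic. Its strongest peak was found in library 1 at 8.10 and in library 3 at 9.93, but had no matched summit in library 2.

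The 6 domains with the highest single pooled signal were mostly smaller. CG32772 (X, 6 peaks) led with a pooled signal of 1624 and relative signals of 29.7, 25.1 and 30.3 in libraries 1, 2 and 3. ush (u-shaped, 2L, 7 peaks), a cofactor of GATA factors, followed with 36.7, 24.1 and 28.3 at an intronic peak whose nearest TSS was that of cbt. At ph-p (polyhomeotic proximal, X, 5 peaks), a subunit of the Polycomb repressive complex, the promoter peak gave 30.6, 21.95 and 33.2. osa (3R, 5 peaks), a subunit of the Brahma chromatin remodelling complex, gave 28.2, 19.1 and 31.3.

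The last of these 6 were at noncoding RNA genes. lncRNA:CR44619 (X, 7 peaks), at 1.28 peaks per kb the densest of the 18 domains named by the rule, had neighbouring promoter peaks with 28.2, 16.7 and 34.5 and with 26.1, 19.3 and 32.6. The domain near lncRNA:CR31044 (3R, 4 peaks) reached 21.0, 23.7 and 27.5. Among these 6 strongest peaks library 2 was lowest in all but that near lncRNA:CR31044.

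The domains with 8 or more peaks, 15 in number, varied widely in where their peaks lay. They held 152 peaks, of which 43 (28.3%) were at promoters, and the promoter share of a domain ran from 0% to 87.5%, with a median of 22.2%. There were 5 such domains on the X, 5 on 2R, 2 each on 3L and 3R, and 1 on 2L. Their mean GC content around the summits ran from 30.8% to 41.8%. In 6 of the 15, as in 57 of the 153 domains with 4 or more peaks, every kept summit lay inside the body of 1 gene.

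The share of summits at promoters was lower among clustered than among other IDR peaks, and the shares in introns and between genes were higher. A promoter summit lies within 1000 bp of a TSS. Of the clustered peaks, 355 (38.3%, 95% Wilson interval 35.3 to 41.5) were at promoters, against 1551 of 2913 others (53.2%, 51.4 to 55.1). Introns held 386 clustered peaks (41.7%, 38.6 to 44.9) against 32.4% of the others (30.7 to 34.1), and intergenic sequence held 168 (18.1%, 15.8 to 20.8) against 13.0% (11.8 to 14.3). A single clustered summit (0.108%) fell in a coding exon. Peaks of 1 genome are not replicates, so these intervals cover counting error only.

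The comparison was repeated within each library, over the peaks matched in it. Library 1 had 37.6% of clustered peaks at promoters against 53.2% of the others, library 2 had 39.5% against 52.9%, and library 3 had 37.5% against 50.9%. The difference was therefore negative in all 3 libraries, at -14.1 ± 1.26 percentage points (SD, n = 3). An exact two-sided sign-flip permutation test gave p = 0.25, the smallest that 3 libraries allow, so no difference could pass at this size. The libraries share most of these peaks and are not separate choices of them. With domains built from the strongest peaks of a single library, as many as the IDR list holds, an alternative chosen after seeing the data, the differences were -18.9, -15.4 and -17.4 points in libraries 1, 2 and 3.

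The promoter share was lower the more neighbours a peak had, on both sides of the threshold, as a description over peaks. It was 56.4% for the 1202 peaks with no neighbour, 53.9% with 1, 46.8% with 2, 43.7% with 3 and 36.6% with 4. In the 61 peaks with 7 or more neighbours it was 16.4% (Wilson interval 9.16 to 27.6). Peaks of the same domain count separately here, so the interval covers counting error only and not differences between domains. In the domains of 8 or more peaks the promoter share ran from 0% to 87.5%. The intron share went the other way, from 28.5% with no neighbour to 52.5% with 7 or more.

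**Figure D3:**
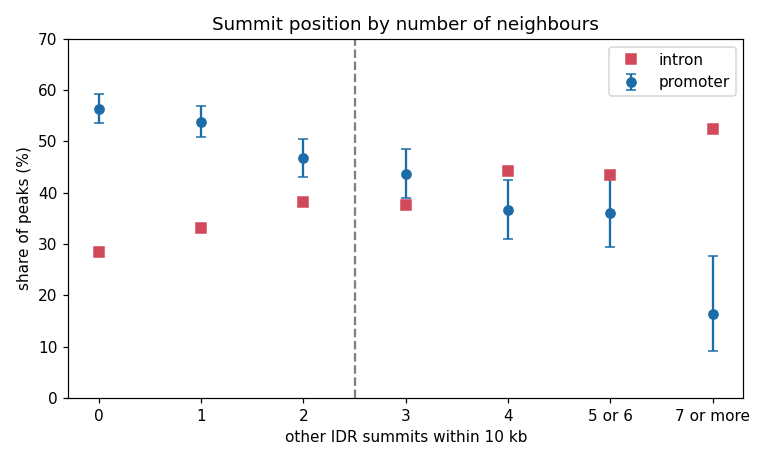
Share of IDR peaks in percent (y axis) at promoters (circles, with 95% Wilson intervals) and in introns (squares, no interval drawn) by the number of other IDR summits within 10 kb (x axis). The dashed line marks the threshold of the rule, with clustered peaks to its right. Peaks of the same domain count separately. The promoter share went from 56.4% with no neighbour to 16.4% with 7 or more.

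Within genes, most intronic summits lay toward the start. Of the 386 intronic clustered summits, 279 (72.3%, Wilson interval 67.6 to 76.5) were nearer the start of the gene than its end, against 599 of 943 other intronic summits (63.5%, 60.4 to 66.5). The median distance from the gene's start was 8948.5 bp for the clustered and 11784 bp for the others. The genes concerned had like lengths, with medians of 34679 and 37765 bp. Each value counts summits, several of which share a gene, and no test was made over them.

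The arms did not hold clustered peaks in equal measure. On the X, 211 of 698 IDR peaks were clustered (30.2%, Wilson interval 26.9 to 33.7), while the share on 3R was 19.9% (17.4 to 22.7). The others stood between, with 25.2% on 2L, 23.8% on 3L and 22.4% on 2R, and the single IDR peak on chromosome 4 was not clustered. In domains built from each library alone, the X share was 27.5%, 26.7% and 33.5% in libraries 1, 2 and 3, beside 21.6%, 26.3% and 27.3% over all arms. The X therefore stood above the whole list in libraries 1 and 3, and about level with it in library 2, where 2L (29.1%) and 3L (28.3%) were higher. The place of 3R varied too, with 20.6%, 23.7% and 26.4%, above 2R in libraries 1 and 3 (19.1% and 21.4%).

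The median signal of clustered peaks was slightly above that of the others. Because signal helped to decide which peaks passed the IDR threshold, signals are given as a description with no test. The median relative signal of clustered against other peaks was 3.61 against 3.36 in library 1, 3.34 against 2.93 in library 2, and 4.43 against 4.12 in library 3. The ratio was above 1 in every library, at 1.10 ± 0.0378 (SD, n = 3). In the pooled list clustered peaks ranged from 112.2 to 1624 with a median of 191.1, while the others ranged from 111.9 to 3234 with a median of 180.7. Among the 500 strongest IDR peaks 152 were clustered, which is 16.4% of the clustered and compares with 348 (11.9%) of the others, but none of the peaks above 1624 was clustered.

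Most clustered peaks were found in every library. Library 1 matched 95.9% of clustered and 96.7% of other IDR peaks, library 2 matched 91.4% and 92.8%, and library 3 matched 95.8% and 91.2%. The clustered share was therefore the higher one in library 3 alone. All 3 libraries held a matched summit for 785 clustered peaks (84.8%, Wilson interval 82.3 to 86.9) and for 82.3% of the others (80.9 to 83.6). A further 125 were matched in exactly 2 libraries and 16 in only 1. Library 2 matched the fewest clustered peaks, 846, against 888 in library 1 and 887 in library 3. The IDR list was itself chosen for likeness between these libraries, so the shares are a description.

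Each library also lists peaks that match no IDR peak, some of them among its strongest, and these too were denser inside domains. In the 183 domains of 2 or more kept peaks, library 1 listed 0.411 of these unmatched peaks per kb inside domains, 0.334 in the 10000 bp beside them and 0.199 over all of the arms outside domains, the 10000 bp beside them included. The corresponding densities were 0.555, 0.426 and 0.198 in library 2 and 0.407, 0.295 and 0.201 in library 3. All libraries thus had the same order, and library 2 the highest density inside domains. The ratio of inside to outside was 2.07, 2.81 and 2.03, or 2.30 ± 0.438 (SD, n = 3). Library lists have a fixed length of 30000 peaks and share the libraries that set the domains, so no test is given.

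**Figure D4:**
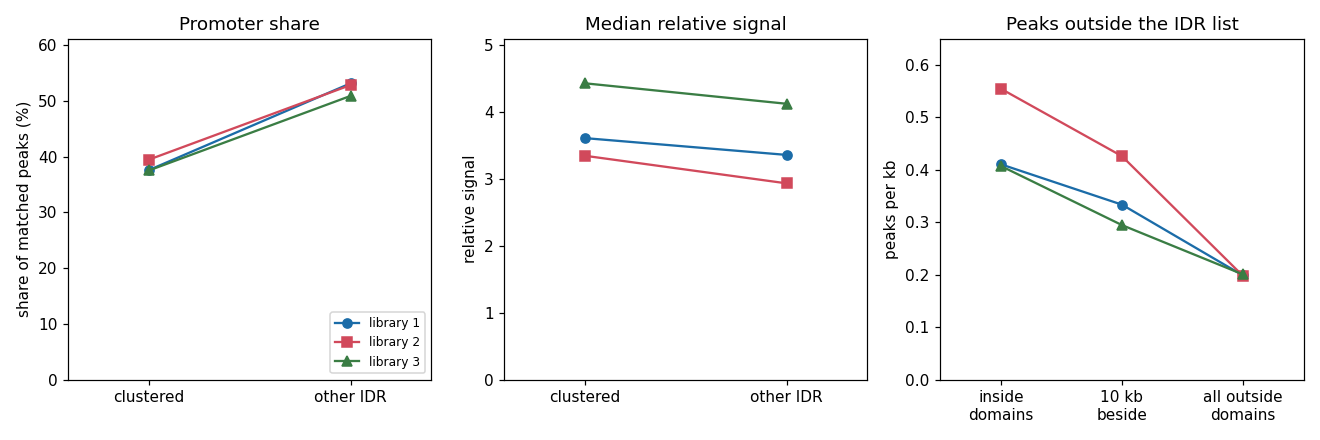
Measures in each library, 1 line per library. Left, promoter share in percent of the matched clustered and other IDR peaks. Middle, their median relative signal. Right, peaks per kb that match no IDR summit within 100 bp, inside domains, within 10 kb beside them and over all of the arms outside domains. The last includes those 10 kb. In every library the promoter share was lower for clustered peaks and the density of unmatched peaks was highest inside domains, at 0.411, 0.555 and 0.407 per kb.

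Most domains, but not all, overlapped domains built from a single library. Of the 217 domains, 155 (71.4%) overlapped a domain built from library 1 alone, 143 (65.9%) one from library 2 and 164 (75.6%) one from library 3. In the other direction, 77.4% of the 199 domains of library 1, 66.5% of the 212 of library 2 and 71.1% of the 228 of library 3 overlapped an IDR domain. All 3 libraries gave an overlapping domain for 99 (45.6%), and none did for 14. The 15 domains of 8 or more peaks were all among those 99, as were 83 of the 153 with 4 or more. The IDR list was chosen from these same libraries, and any shared base counted as an overlap, which a longer domain meets more easily. These counts are therefore a description.

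In most domains 1 peak did not dwarf the rest. Across the 153 domains with 4 or more peaks, the strongest pooled signal was a median of 1.41 times the next one, and it exceeded 2 times in 38 of them, up to 6.94 times. The same peak was strongest in all 3 libraries in 82 domains (53.6%). That strongest peak was at a promoter in 66 domains (43.1%), beside 37.6% of all kept peaks in these domains.

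The domains did not rank alike in all libraries. Across the 153 domains with 4 or more peaks, Spearman's correlation of median relative signal was 0.652 between libraries 1 and 3, 0.538 between libraries 1 and 2, and 0.338 between libraries 2 and 3. These are descriptions over domains that share a genome and a control. Domains were ranked only by how far library 2 departed from libraries 1 and 3. Library 3 also stood apart in places, as at lncRNA:CR45668, with medians of 3.743, 5.285 and 12.61 in libraries 1, 2 and 3. That domain and those below, among the ones where library 2 departed most, were named after their values were seen. At cic (capicua), a repressor acting below receptor tyrosine kinase signalling, the domain median was 0.991 in library 2 against 2.93 and 3.68 in libraries 1 and 3. Library 2 had matched summits for only 2 of its 4 peaks, while libraries 1 and 3 had all 4. Over those 2 peaks library 2 gave 0.733 and 1.25, library 1 gave 2.67 and 3.99, and library 3 gave 2.77 and 2.93. The domain at vri, a clock repressor gene, had 3.07 in library 2 against 7.06 and 8.82. In the other direction, the domain at pdgy had 8.19 in library 2 against 4.52 and 3.89, and that at Psc, a Polycomb group gene, had 6.18 against 4.23 and 2.90.

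**Figure D5:**
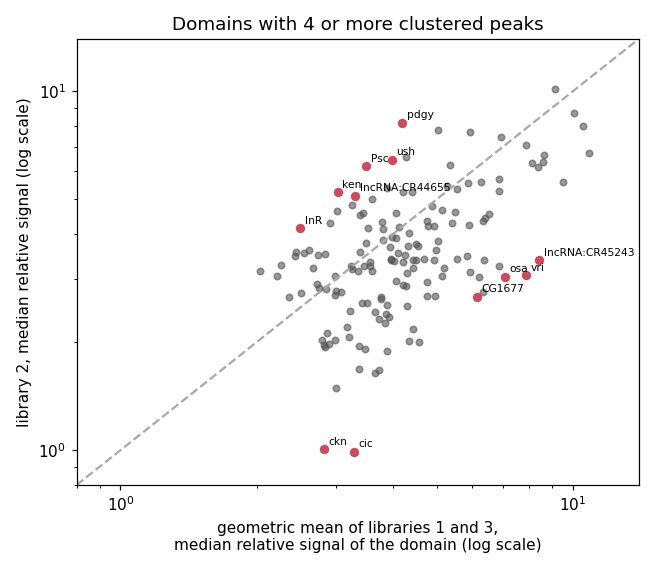
Median relative signal of each of the 153 domains with 4 or more clustered peaks. The x axis is the geometric mean of libraries 1 and 3 and the y axis is library 2, both on log scales, each median taken over the peaks matched in that library; the dashed line marks equal values. Red points are the 12 domains where library 2 departed most from libraries 1 and 3, 6 in each direction. The cic domain lay lowest in library 2, at 0.991, and pdgy was among the high ones, at 8.19.

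Few genes began inside a domain, and long genes hosted many of the peaks. A TSS lay inside a domain for 337 of 18164 annotated genes (1.86%), of which 219 were protein coding. The annotation also has short noncoding entries without a symbol, which are counted as genes. They made up 14 of the 337, and without them 323 genes (1.83%) began inside a domain. Within those 337, 260 (77.2%) had an IDR peak at a promoter, beside 13.5% of all genes, which follows from where domains were drawn. A clustered summit lay that close to a TSS of 340 genes (1.87%). Noncoding RNA genes began inside domains in 107 of 3261 cases (3.28%), or 93 of 2780 (3.35%) without the entries that have no symbol, against 1.57% of the 13945 protein-coding genes. No TSS at all lay inside 69 of the 217 domains, 34 of them with 4 or more peaks.

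Genes whose bodies held 2 or more kept summits of a domain numbered 136. Their median length was 22514 bp, against 1656 bp over all genes, and 71 (52.2%) were longer than 20000 bp, against 5.72% of all. The part of gene length in these counts was not tested. Summed over all domains, the body with most clustered summits was that of Tet, a methylcytosine dioxygenase family gene, with 13 in 3 domains. The bodies of shn, sbb, CG1677 and lncRNA:CR44357 held 12 each. Tlk followed with 10, then CHES-1-like, Mnt, brat and ush with 9 each. Raf and tou (toutatis, a chromatin remodelling factor gene) held 8 each. The cell cycle factor gene E2f1 and the BTB-domain gene psq (pipsqueak) held 7 each. Tet, Tlk, brat, tou, E2f1 and psq were named after their counts were seen.

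The gene lists were chosen with earlier results of these data known, so the shares of each list given from here on are descriptions only. In the EGFR pathway, which signals through Raf to the ETS factors pnt and aop, clustered summits lay in the bodies of 6 of 15 genes. Over all genes that share was 1.31%, and over genes longer than 20000 bp it was 8.57%. The median EGFR pathway gene was 22271 bp long. An IDR promoter summit was present at 46.7% of the 15 genes, against 13.5% of all genes and 26.8% of those longer than 20000 bp. A TSS lay inside a domain for 2 of the 15 (13.3%, against 1.86% of all genes and 4.81% of those longer than 20000 bp), Raf and spi, which encodes the ligand Spitz. At the spi promoter the peak gave 10.2, 3.44 and 15.1 in libraries 1, 2 and 3, with library 2 the lowest by far.

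The other 4, named after their values were seen, had clustered summits in the body but no TSS inside a domain. The ETS repressor gene aop held 6 and the ETS activator gene pnt held 5. Their strongest peaks, both intronic, gave 11.2, 9.69 and 12.4 at aop and 13.0, 13.3 and 16.4 at pnt. edl, whose product binds ETS factors and modulates them, gave 13.8, 10.5 and 17.2, and S (Star), needed for Spitz trafficking, gave 4.53, 3.90 and 5.77.

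Ecdysone drives the prepupal stage, and 3 of 23 genes of its response list had a TSS inside a domain (13.0%), with clustered summits in the bodies of 5 (21.7%). Over genes longer than 20000 bp these shares were 4.81% and 8.57%, and over all genes 1.86% and 1.31%. The median gene of the list was 31127 bp long. The share with an IDR promoter summit was 43.5%, against 13.5% of all genes and 26.8% of those longer than 20000 bp. Hr4, a nuclear receptor gene, had the strongest peak, intronic, at 19.99, 17.2 and 21.7 in libraries 1, 2 and 3. Eip75B, also a nuclear receptor gene, gave 12.9, 11.1 and 13.7, and E23, an ecdysone-induced transporter gene, gave 9.07, 6.06 and 13.8 at its promoter. lncRNA:let7C, the host of the let-7 complex microRNAs, held 5 clustered summits in its body, and the ETS factor gene Eip74EF held 1. Neither had a TSS inside a domain, and both were named after their values were seen. The domain near Eip93F (3R, 5 intergenic peaks), also named after it was seen, held no TSS and adds to neither share. The strongest peak of the let-7 host lay at its promoter, 572 bp from the TSS, and gave 12.2, 13.3 and 6.60, with library 3 lowest.

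The wing and Notch lists had few members, so each share with a TSS inside a domain rests on 1 or 3 genes. An IDR promoter summit was present at 31.25% of the wing list and 31.6% of the Notch list. Over all genes this was 13.5%, and over those longer than 20000 bp 26.8%. Of 16 wing and vein patterning genes, dpp, the BMP ligand, was the only one with a TSS inside a domain (6.25%, against 1.86% of all genes), and its strongest peak, intronic, gave 20.2, 16.5 and 20.9. tkv, a Dpp receptor gene, had clustered summits in the body but no TSS inside a domain, with 5.92, 5.61 and 7.89. Of 19 Notch pathway genes, E(spl)mbeta-HLH, E(spl)malpha-BFM and E(spl)m2-BFM, neighbouring target genes of the pathway, had a TSS inside a domain (15.8%). All 3 share 1 domain and its strongest peak, intergenic, at 13.2, 9.23 and 15.3, so they count as 1 site.

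The other lists gave counts of 1 or 2, to be read beside the 1.86% of all genes and the 4.81% of genes longer than 20000 bp. They also differed in the share with an IDR promoter summit, which was 13.5% of all genes and 26.8% of those long genes. That share was 50% in each of the insulin and TOR, Polycomb group and circadian lists. It was 20% among cell death genes and 16.7% in the GATA and cofactor list. In the insulin and TOR list 2 of 12 genes (16.7%) began inside a domain, Sesn (sestrin, an inhibitor of TOR signalling) with 22.5, 18.4 and 24.5 at its promoter and foxo, the insulin-regulated forkhead factor gene, with 9.12, 4.27 and 6.41. InR, the insulin receptor gene, held clustered summits in the body without a TSS inside a domain and was one of the genes higher in library 2, at 5.56 against 2.82 and 3.43 in libraries 1 and 3. Among 14 Polycomb group genes ph-p and Psc began inside a domain, and the Psc domain's strongest peak gave 9.53, 9.66 and 15.6. Diap1, the caspase inhibitor gene, was the only one of 10 cell death genes with a TSS inside a domain, at 7.30, 5.47 and 4.35. A domain of 5 peaks near hid (3L, 18185889 to 18195297), named after its values were seen, held no TSS and was not counted. Its median relative signals were 8.53, 6.65 and 8.78 in libraries 1, 2 and 3. Library 2 matched 3 of its 5 peaks. The GATA and cofactor list had 1 of 6 (ush) and the circadian list 1 of 8 (vri).

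Most ribosomal protein genes had an IDR promoter peak, and the share that began inside a domain was nearer that of all genes. Of 85 cytoplasmic ribosomal protein genes, 61 had an IDR peak at their promoter, against 13.5% of all genes, while 3 began inside a domain (3.53%, against 1.86%), among them RpL22 and RpL39. The peaks at the RpL22 and RpL39 promoters gave 6.97, 3.37 and 5.35, and 5.32, 2.82 and 4.89, in libraries 1, 2 and 3.

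Several lists had no gene in a domain by either measure. By either measure 2.26% of all genes and 8.86% of those longer than 20000 bp had one, and these zeros were not tested. They were the 8 Hox genes, 27 other homeobox genes, 16 heat shock genes, 38 genes of the dpr, DIP and beat families of neuronal recognition proteins and 98 cuticle protein genes. The Hox and neuronal recognition genes are long, with median lengths of 30563 and 32525.5 bp, and 0 of 8 and 2 of 38 (5.26%) had an IDR summit at a promoter. That share was 13.5% over all genes and 26.8% over genes longer than 20000 bp. Of the other lists, 2 of 27 homeobox genes (7.41%), 6 of 16 heat shock genes (37.5%) and 1 of 98 cuticle protein genes (1.02%) had such a summit.

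Neither spalt gene lay in a domain. The nearest, 4 peaks on 2L from 11386447 to 11394500 near lncRNA:CR43681, lies between them and was named after this was seen, 12811 bp from salr and 39811 bp from salm. Its strongest peak, 11394157 to 11394500, gave 5.86, 3.03 and 5.44 in libraries 1, 2 and 3. The labels do not say whether the transgene adds a copy of the sequence around salr.

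The DNA under clustered summits was about as rich in A and T as under other IDR summits. Within 50 bases of the summit, GC content was 36.5% in clustered and 36.2% in other IDR peaks, against 46.2% in the lowest-signal peaks of the pooled list, as many as the IDR list holds, and 42.1% in windows 500 bp from the clustered summits. Over the peaks matched in each library, the difference between clustered and other peaks was 0.302, 0.565 and 0.0135 percentage points in libraries 1, 2 and 3. The mean was 0.294 ± 0.276 (SD, n = 3). The sequence is that of 1 genome and the libraries share most of these peaks, so this SD is not a spread between replicate measurements. By class, clustered and other peaks had 38.1% and 37.3% at promoters, 35.1% and 34.8% in introns, and 35.7% and 34.5% between genes. A run of 8 or more A or T bases, such as those in capitals above, was in 68.4% of clustered and 68.4% of other IDR windows, and in 40.7% of the lowest-signal ones.

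Short words were searched on both strands of the same windows. AATATT, an A/T-only word, was in 16.6% of clustered windows (Wilson interval 14.4 to 19.2), 14.2% of other IDR windows (13.0 to 15.5) and 5.99% of the lowest-signal windows. AAATAT, which shares 5 letters with it on overlap, was in 28.0%, 28.5% and 12.7%. GAGAGA, the core of the repeats bound by GAGA factor, was in 6.16%, 5.46% and 4.32%. CACACA was in 8.64%, 7.21% and 12.2%. In windows 500 bp from the clustered summits AATATT was in 9.23%, AAATAT in 17.8%, GAGAGA in 6.64% and CACACA in 11.8%. For GAGAGA and CACACA these shares were above those at the clustered summits. At this number of peaks the intervals of clustered and other IDR windows overlapped for AATATT, and a word in a window is not evidence of a bound site.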

How the data were processed

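Per the labels, the authors deposited a peak list on dm6 for each of 3 libraries and 1 for the pooled reads (30000 peaks each), and a list of IDR peaks. Which aligner and caller made them is not given in the sources used here. Each deposited signal is the authors' enrichment for that peak, on a scale not stated, and the deposited summit offset is another number counted from the peak start. Each IDR peak has its exact counterpart in the pooled list. Depth is unknown, since no read counts are in the files. No per-sample column was left unused (0). The libraries are called replicates in the labels, so spreads are between these libraries.

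Peaks were matched between lists where summits lay within 100 bp. Summits within 1000 bp of a TSS were called promoter, and the rest were assigned to exon, intron or intergenic sequence of the Ensembl BDGP 6.54 annotation, release 115 (18164 genes, 23584 distinct TSSs). Coordinates are 1-based. Sequences came from the RefSeq Release 6 genome. Wilson intervals are at 95%. The members and gene lists were chosen with earlier results of these data known. In 15 gene lists, 5 listed symbols were not matched. Domains named are the 12 with most kept peaks (ties by summed pooled signal), the 6 with the highest single pooled signal and any holding salr or salm; genes named are those whose body held 2 or more kept summits, otherwise the gene with the nearest TSS, and list genes with a TSS inside a domain, at most 6 a list. Exceptions are stated where they occur, and some items are not reported here. A test is reported only for the promoter share. The same test was also run on signal, GC content and densities of peaks outside the IDR list. Those results are not given, and these measures are described only. The grouping steps were tested on simulated data, where 200 of 200 planted domains were recovered whole. Software was pandas 2.3.3, numpy 2.4.6, matplotlib 3.10.9 and scipy 1.17.1 under Python 3.11.15.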

Additional observations from a re-analysis of the deposited data

How the results depend on the processing

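Counts followed the rule's settings. Against 926 clustered peaks, 217 domains and 337 genes with a TSS inside, 2 or more other summits gave 1612, 411 and 743, and 4 or more gave 512, 113 and 139. A neighbour window of 5000 bp gave 381, 112 and 82, and one of 20000 bp gave 1652, 490 and 837. The stronger IDR peaks alone, those at or above the median signal, gave 195, 55 and 62. Leaving out each library in turn gave 673 to 771 clustered peaks, 166 to 179 domains and 241 to 271 genes. The promoter difference (-14.1 points) was negative under all 14 alternatives, and from -14.8 to -11.5 without a library. The signal ratio (1.10) was above 1 under all 13, and 1.05 to 1.07 without a library. The share matched in all libraries (84.8%) was 92.8% for the stronger peaks, 60.9% with matching within 50 bp and 93.5% within 200 bp, and has no value without a library by construction. The GC difference over all IDR peaks (0.303 points) had no stable sign: it was 0.0133 with 2 or more other summits, -0.279 with the 5000 bp window, -0.716 for the stronger peaks, 1.38 for domains from library 2 alone and -0.786 for library 3 alone, the last 2 chosen after seeing the data, and 0.108 to 0.264 without a library. The cause of these shifts was not tested. No paired analysis was possible because there is only 1 group of libraries. With no read counts, limits of detection cannot be given.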
